A study of Bos taurus with 16 samples.

Results

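Glucose handling was followed through 33 genes that cover glucose uptake, the 10 steps of glycolysis, lactate production and export, the pentose phosphate pathway, the hexosamine entry step and glycogen synthesis. The genes are the enzymes and transporters of a pathway list matched by symbol, and each of the 33 was found once in each of the 3 expression tables, among 38959, 37429 and 28303 listed genes. Of the 33, 31 had a mean of at least 10 normalized counts in either blastocyst table and were tested there. The neuronal enolase ENO2 and the lactate exporter SLC16A3 were under that level in the blastocysts. In the bovine embryonic stem cells (bESCs) all 33 were tested.

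The study treated wild-type bovine embryos and bESCs with LY2955303 (LY), an inhibitor selective for retinoic acid receptor gamma, and sequenced their mRNA in 16 libraries. The embryos came from oocytes matured and fertilised in vitro, were grown in culture medium with added LIF, FGF2 and IGF1 in treated and vehicle groups alike, and were sequenced as single blastocysts collected on day 8. In the first experiment 3 DMSO blastocysts received the vehicle and 3 LY10 blastocysts received 10 μM LY, which the methods place from the first cleavage on. In the second experiment, 2 LY_DMSO blastocysts received the vehicle, 2 cell2_LY blastocysts received LY from the 2-cell stage and 2 cell16_LY blastocysts received LY from the 16-cell stage, at a dose that the labels do not give. The 2 bESC_LY libraries received LY, in the study's text at 10 μM for 3 days, and the 2 bESC_tifx libraries were labelled only with TiFX, the stem cell medium, which holds LIF, forskolin and several kinase inhibitors in both groups. The bESCs were derived from the inner cell mass of blastocysts and grown on mouse embryonic fibroblast feeders, and the sources used here do not say how many lines or cultures the 4 libraries represent. Nothing in the labels says whether blastocysts of a group shared a fertilisation run, so p-values measure only the spread between these libraries.

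Reads on genes numbered 7905768 to 15137567 in the first blastocyst table, 11336091 to 17343140 in the second and 29055323 to 31230432 in the bESC table. A count of 0 allowed up to 4.09, 3.50 and 3.18 normalized counts in the shallowest library of each table, and that limit covers counting error only. The trophectoderm keratin KRT8 lay between 1582 and 6493 FPKM (a read count scaled for transcript length and library size) in the blastocysts and between 60.4 and 209 FPKM in the bESCs, whereas the pluripotency factor POU5F1 lay between 164 and 611 FPKM in the blastocysts and between 967 and 1117 FPKM in the bESCs. The trophoblast genes IFNT2, PAG2, PAG11 and PAG12 were at 0 in all 4 bESC libraries, and the hypoblast factor SOX17 was at 0 to 0.386 FPKM in all 16 libraries. The receptor that LY targets, RARG, lay between 0 and 0.0487 FPKM in the 12 blastocysts and between 10.5 and 19.5 FPKM in the bESCs.

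Glycolysis splits glucose into pyruvate and yields ATP, and lactate dehydrogenase converts pyruvate to lactate so that NAD+ is restored. The pentose phosphate pathway leaves glycolysis at glucose 6-phosphate. Its oxidative arm makes NADPH and ribulose 5-phosphate, and its non-oxidative arm interconverts sugar phosphates, giving ribose for nucleotides and returning carbon to glycolysis. Cleavage-stage embryos rely mainly on pyruvate and lactate, and glucose uptake increases as the blastocyst forms.

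The glycolytic steps differed widely in mRNA level, and the step with the least mRNA was the same in all blastocyst groups. FPKM values are scaled for transcript length, so the members that catalyse a step were summed on that scale. Isoenzymes that are not members, such as the hexokinase HKDC1, were left out of the sums. Phosphofructokinase, the committed step of glycolysis, had the lowest sum of the 10 steps in all 5 blastocyst groups, with 6.52 ± 1.88 FPKM in DMSO (SD, n = 3), 10.2 ± 1.40 in LY10 (n = 3), 9.36 ± 1.72 in LY_DMSO (n = 2), 17.6 ± 5.27 in cell2_LY (n = 2) and 21.2 ± 2.42 in cell16_LY (n = 2). Glyceraldehyde-3-phosphate dehydrogenase (GAPDH), which carries out the first oxidation, had the highest sum in all 7 groups and made up 33.04 to 54.2% of the summed glycolytic FPKM of a blastocyst. The profile of the bESCs had another shape. Phosphofructokinase reached 230 ± 107 FPKM in bESC_LY and 241 ± 128 in bESC_tifx (n = 2 each), and the lowest step was triosephosphate isomerase (TPI1), at 0.391 to 0.747 FPKM. In the annotation of that table the whole TPI1 span lay inside the span of SPSB2 on the other strand, and whether this affected the reads assigned to TPI1 was not tested. The blastocyst and stem cell tables were normalised separately, so no test was made across them.

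**Figure D1:**
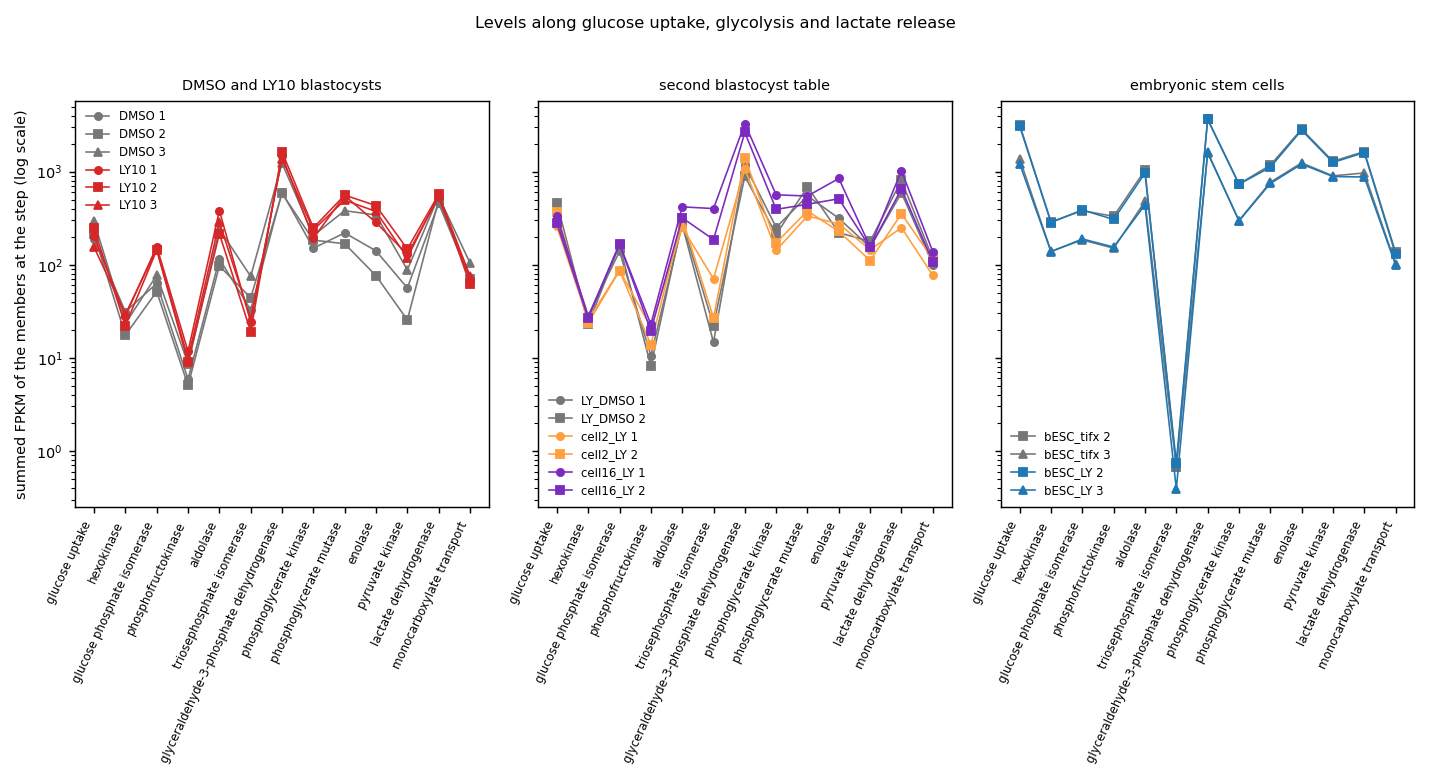
Summed FPKM of the members of each glucose-handling step (log axis) by group, with a point for each library. Phosphofructokinase is the lowest glycolytic step in the 5 blastocyst groups, and triosephosphate isomerase is the lowest in the bESC groups, at 0.391 to 0.747 FPKM.

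Several steps use alternative isoenzymes, and the blastocysts expressed mainly 1 member of most pairs. The phosphofructokinase subunit PFKL lay between 2.87 and 20.9 FPKM in the 12 blastocysts, while the muscle subunit PFKM lay between 0.336 and 1.65 FPKM and the platelet subunit PFKP between 0.0942 and 1.46 FPKM. ENO2 lay between 0 and 1.06 FPKM beside ENO1 at 75.7 to 844 FPKM. Of the monocarboxylate transporters, SLC16A1 lay between 61.3 and 138 FPKM and SLC16A3 between 0 and 0.112 FPKM. Among glucose transporters, SLC2A3 exceeded SLC2A1 in all 12 blastocysts, with 119 to 354 FPKM against 24.5 to 109.7 FPKM. These secondary forms were well above those levels in the bESCs, where PFKM lay between 17.7 and 34.7 FPKM, PFKP between 23.9 and 41.6 FPKM, ENO2 between 19.2 and 20.8 FPKM and SLC16A3 between 15.7 and 58.4 FPKM.

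In the first experiment, LY10 blastocysts had higher levels of genes at both ends of glycolysis and of the oxidative pentose phosphate enzyme PGD, and lower levels of TPI1 and GFPT1. The calls use the threshold of the study. A gene passed it when its log2 fold change exceeded 1 in size at p under 0.05 before correction. Of the 31 tested members, 7 were called higher in LY10 and 2 lower, that is 29.0% of them, where 6.2% and 8.51% of the 14249 genes tested were called, 14.7% in all. The higher calls fell on HK1, GPI, ALDOA, PGAM1, ENO1, PKM and PGD. The median log2 fold change was 0.38 over the members and -0.05 over all genes tested. No member had an adjusted p under 0.05 in limma after the Benjamini-Hochberg correction over all genes tested, and the smallest adjusted p among them was 0.0711, while 2 of all genes passed. The test asked whether LY from early cleavage altered blastocyst mRNA. In bulk libraries of whole embryos, fewer cells of a type and less RNA per cell cannot be told apart.

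Uptake came first and showed no call. SLC2A1, the widely expressed glucose transporter, was at 36.9, 45.5 and 24.5 FPKM in DMSO and at 38.9, 76.2 and 34.9 FPKM in LY10. SLC2A3, the high-affinity transporter, was at 151, 167 and 268 FPKM in DMSO and at 166, 169 and 119 FPKM in LY10. The groups overlapped for both genes, with log2 fold changes of 0.44 ± 0.35 and -0.34 ± 0.27 (SE).

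Hexokinase traps glucose as glucose 6-phosphate. Its form HK1, on chromosome 28 from 25655622 to 25768164, was at 4.11, 1.07 and 4.96 FPKM in DMSO and at 9.11, 11.7 and 10.6 FPKM in LY10. Every LY10 blastocyst exceeded every DMSO blastocyst, and HK1 was 3.70-fold higher (log2 fold change 1.89, 95% interval 0.68 to 3.10, adjusted p = 0.0998 in limma). The other form among the members, HK2, was at 27.1, 16.5 and 18.3 FPKM in DMSO and at 19.0, 10.5 and 18.8 FPKM in LY10, with overlapping groups. A further hexokinase gene, HKDC1, is not a member and lay between 4.32 and 13.2 FPKM in the blastocysts of this experiment. HK2 exceeded HK1 in every DMSO blastocyst, and the ratio of HK1 to HK2 was 0.0705 to 0.275 in DMSO and 0.482 to 1.11 in LY10. The mean log2 ratio was -2.79 in DMSO and -0.57 in LY10 without overlap, at p = 0.1 in a two-sided exact permutation test, the smallest that 3 against 3 libraries allow (adjusted p = 0.632 over 55 isoenzyme tests).

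GPI, which turns glucose 6-phosphate into fructose 6-phosphate, was at 63.0, 51.5 and 77.1 FPKM in DMSO and at 157, 143 and 147 FPKM in LY10. The LY10 libraries lay close together above all the controls, with a 2.36-fold difference (log2 fold change 1.24, 0.74 to 1.74, adjusted p = 0.0783 in limma). The phosphofructokinase gene PFKL was at 5.15, 2.87 and 8.03 FPKM in DMSO and at 10.8, 7.51 and 8.86 FPKM in LY10, overlapped and was not called (log2 fold change 0.86 ± 0.40, SE). Aldolase splits fructose 1,6-bisphosphate, and its form ALDOA was at 105, 80.8 and 227 FPKM in DMSO and at 373, 208 and 271 FPKM in LY10. It was called higher by 1.15 on the log2 scale (0.27 to 2.03, adjusted p = 0.136 in limma), although DMSO 3 exceeded LY10 2. The brain-type aldolase ALDOC was at 10.2, 16.2 and 14.2 FPKM in DMSO and at 9.09, 7.38 and 14.6 FPKM in LY10, and the ratio of ALDOA to ALDOC did not overlap, at 4.96 to 15.9 in DMSO and 18.4 to 40.6 in LY10 (exact p = 0.1).

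TPI1 went the other way from its neighbours. TPI1, which interconverts the 2 triose phosphates and lies on chromosome 5 from 103580104 to 103583461, was at 32.7, 44.1 and 75.0 FPKM in DMSO and at 24.2, 19.1 and 26.2 FPKM in LY10. All LY10 libraries were below all DMSO libraries, a 2.07-fold lower level (log2 fold change -1.05, -1.81 to -0.29, adjusted p = 0.123 in limma).

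The lower part of the pathway from GAPDH to pyruvate kinase had a positive log2 fold change for all 5 tested members, with a median of 1.15 and 3 called. GAPDH itself was at 601, 583 and 1231 FPKM in DMSO and at 1476, 1634 and 1375 FPKM in LY10. The groups did not overlap, but its log2 fold change of 0.98 was just under the threshold of 1 (adjusted p = 0.118 in limma). A GAPDH-like copy, LOC616200, held 12.1 to 19.1% as many reads as GAPDH in these 6 libraries. How far the copy affected the level of GAPDH was not tested. PGK1, which makes the first ATP, was at 150.3, 184 and 206 FPKM in DMSO and at 192, 249 and 236 FPKM in LY10, overlapped and was not called.

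PGAM1, the phosphoglycerate mutase, was at 219.8, 168 and 380.4 FPKM in DMSO and at 552, 559 and 493 FPKM in LY10. The groups were separate, with a 2.21-fold higher level in LY10 (log2 fold change 1.15, 0.47 to 1.82, adjusted p = 0.091 in limma). Enolase makes phosphoenolpyruvate, and ENO1 was at 141, 75.7 and 342 FPKM in DMSO and at 284, 431 and 373 FPKM in LY10. DMSO 3 was above LY10 1, and the call rested on a log2 fold change of 1.22 with a wide interval, 0.13 to 2.30 (adjusted p = 0.182 in limma). Pyruvate kinase, PKM, ends the pathway with another ATP and was at 56.2, 25.5 and 88.1 FPKM in DMSO and at 129, 147 and 118 FPKM in LY10. Its groups did not overlap, and the difference was 2.61-fold (log2 fold change 1.38, 0.47 to 2.30, adjusted p = 0.104 in limma).

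The same DMSO 2 blastocyst held the lowest value of HK1, GPI, PFKL, ALDOA, GAPDH, PGAM1, ENO1 and PKM, and DMSO 3 held the highest control value of each. Without DMSO 2, 5 members were called, 3 higher and 2 lower, because PKM, PGAM1, ENO1 and ALDOA no longer passed. Without DMSO 3, 10 members were called, all higher, and neither TPI1 nor GFPT1 passed. Over 16 alternatives the calls of HK1, GPI and PGD passed in all 16, PGAM1 and PKM in 15, TPI1 and GFPT1 in 14, ALDOA in 13 and ENO1 in 12.

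Past pyruvate no member was called. LDHA, the lactate dehydrogenase subunit associated with lactate production, was at 135, 82.9 and 129 FPKM in DMSO and at 113, 87.0 and 103 FPKM in LY10. LDHB, the subunit that favours the conversion of lactate to pyruvate, was at 321, 412 and 414 FPKM in DMSO and at 418, 483 and 461 FPKM in LY10. On the FPKM scale LDHB exceeded LDHA in every blastocyst of this experiment, and the log2 fold changes were -0.17 ± 0.25 for LDHA and 0.26 ± 0.20 for LDHB (SE). SLC16A1, which carries lactate and pyruvate across the membrane, was at 70.5, 69.4 and 104 FPKM in DMSO and at 68.6, 61.3 and 75.9 FPKM in LY10.

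Of the 6 pentose phosphate genes, PGD was the 1 called. PGD, the NADPH-producing 6-phosphogluconate dehydrogenase, on chromosome 16 from 43158594 to 43173317, was at 59.9, 44.6 and 52.3 FPKM in DMSO and at 204, 293 and 159 FPKM in LY10. Even the lowest LY10 library was well above the highest control, and the 4.08-fold difference was the largest among the members (log2 fold change 2.03, 1.42 to 2.63, adjusted p = 0.0711 in limma). PGLS, the lactonase before it, was at 23.6, 14.1 and 35.5 FPKM in DMSO and at 55.5, 32.3 and 45.3 FPKM in LY10, overlapped and had a log2 fold change of 0.92, under the threshold (adjusted p = 0.193 in limma).

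In the non-oxidative arm none of 4 members was called. The transketolase TKT was at 68.9, 58.1 and 74.2 FPKM in DMSO and at 116, 141 and 112 FPKM in LY10, without overlap and with a log2 fold change of 0.88 (adjusted p = 0.082 in limma). RPIA, which makes ribose 5-phosphate, was at 199, 187 and 142 FPKM in DMSO and at 124, 167 and 189.9 FPKM in LY10. RPIA therefore exceeded PGD 2.72- to 4.19-fold in the DMSO blastocysts, against a ratio of 0.568 to 1.19 in LY10. The summed oxidative over non-oxidative level was 0.186, 0.136 and 0.206 in DMSO and 0.525, 0.642 and 0.347 in LY10, and these ratios did not overlap. The ratio of glycolysis to the non-oxidative arm, at 3.15, 2.90 and 6.29 in DMSO and 6.54, 6.76 and 5.25 in LY10, did overlap.

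GFPT1, the entry enzyme of hexosamine synthesis, was the other lower call. It was at 11.6, 14.3 and 18.9 FPKM in DMSO and at 7.05, 6.10 and 7.46 FPKM in LY10, with no overlap and a 2.14-fold lower level (log2 fold change -1.09, -1.65 to -0.54, adjusted p = 0.0786 in limma). Its homologue GFPT2 was at 11.04, 5.94 and 3.18 FPKM in DMSO and at 1.76, 5.47 and 9.82 FPKM in LY10, and overlapped. Of the glycogen genes, the phosphoglucomutase PGM1 was at 19.6, 13.8 and 16.4 FPKM in DMSO and at 30.1, 31.6 and 25.0 FPKM in LY10, separate but with a log2 fold change of 0.81. Phosphoglucomutase PGM2, the UDP-glucose maker UGP2 and glycogen synthase GYS1 overlapped, with log2 fold changes of 0.52, -0.04 and -0.31.

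**Figure D2:**
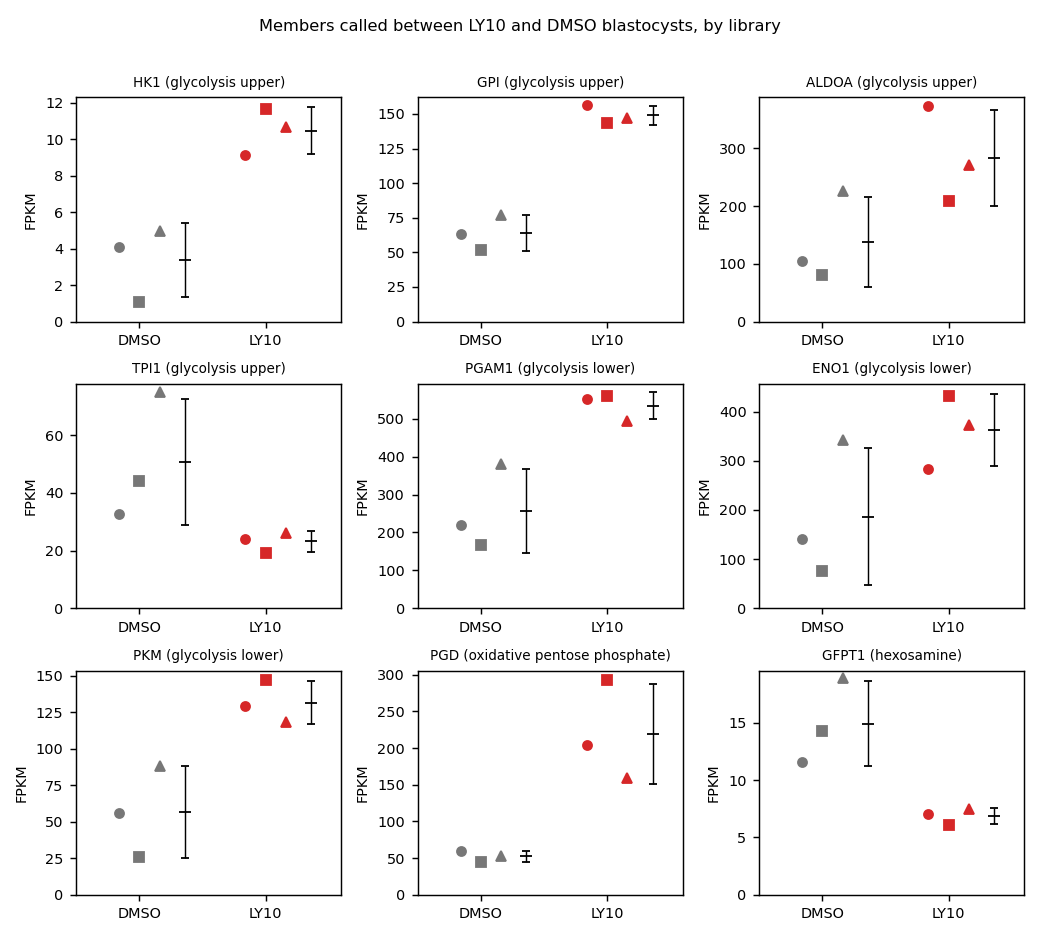
FPKM of selected members in the 3 DMSO and 3 LY10 blastocysts of the first experiment; each marker shape is a replicate number and black bars give the mean ± SD. LY10 lies above DMSO for GPI (143 to 157 against 51.5 to 77.1 FPKM) and PGD (159 to 293 against 44.6 to 59.9 FPKM), and below it for TPI1 and GFPT1.

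Over all 31 members, 9 were higher and 2 lower in LY10 without overlap, where 13.8% and 14.4% of all genes tested were. Of 52 tested genes from a list of 70 related enzymes and regulators, 4 were called higher and 4 lower, 15.4% of them, close to the 14.7% of all genes called. The called ones included the muscle enolase ENO3 (log2 fold change 1.74), the mitochondrial gluconeogenic enzyme PCK2 (3.59) and PFKFB4 (1.51), which makes the activator of phosphofructokinase, as higher, and the transketolase-like TKTL2 (-2.63) and testis-type LDHC (-2.34) as lower. Of 20 tested hypoxia-response genes, 1 was called higher and 3 lower, 20% of them. The summed trophectoderm list was 49826 to 120361 normalized counts in DMSO and 69266 to 174890 in LY10, the epiblast list 8048 to 10650 against 9890 to 14700, and the hypoblast list 11167 to 20263 against 17270 to 28189, all overlapping. Single lineage markers did separate the groups. The pluripotency factor POU5F1 was at 164 to 246 FPKM in DMSO and at 328 to 611 FPKM in LY10 and was the 1 called of 10 epiblast genes (log2 fold change 1.23, adjusted p = 0.0786 in limma). That is 10% of them, beside 14.7% of all genes, and 6 had a positive and 4 a negative log2 fold change. Of 8 tested hypoblast genes, PDGFRA (3.74) and HNF4A (3.31) were called higher, 25% of them beside 14.7% of all genes. GATA6, at 64.8 to 107 FPKM in DMSO and 46.2 to 57.3 FPKM in LY10, and GATA4 were lower without overlap (-0.73 and -1.03) and not called. None of 10 trophectoderm genes was called, and 1 was lower in LY10 without overlap. By its sum, the list of 10 fibroblast markers did not overlap, with 761 to 2269 normalized counts in DMSO and 260 to 403 in LY10. Several of these markers were near the floor. COL3A1, PDGFRB, POSTN, TWIST1 and TWIST2 were at 0 in LY10 1 and LY10 3, and TWIST2 in LY10 2. In DMSO, POSTN was at 0 in DMSO 1 and DMSO 2 and TWIST2 in DMSO 1. COL1A1 lay at 0.108 to 0.507 FPKM in DMSO and 0.0539 to 0.159 FPKM in LY10. Of the 6 fibroblast markers tested, 3 were called lower in LY10, 50% of them beside 14.7% of all genes. All 6 had a negative log2 fold change, with a median of -1.76. Over all genes the median was -0.33 without a filter and 0.06 with a minimum of 50 normalized counts. The part of these markers in the results was not tested.

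The second experiment asked the same question for LY from the 2-cell stage and for a later start, at the 16-cell stage. Both treated groups were compared with the same 2 LY_DMSO blastocysts, so the comparisons are not independent, and each group's values are given side by side. In cell2_LY against LY_DMSO, 3 of 31 members were called higher and 6 lower, 29.0% of them, beside 8.71% and 8.34% of the 14529 genes tested, 17% in all. In cell16_LY against LY_DMSO, 6 were called higher and 0 lower, 19.4% of them, beside 3.25% and 1.97% of all genes, 5.22% in all. None of these members passed an adjusted p of 0.05 in limma: the smallest were 0.0711 with the 2-cell start and 0.126 with the 16-cell start, and 13 and 9 members, respectively, had an unadjusted p under 0.05. The median log2 fold change was -0.46 over the members for cell2_LY and -0.02 for cell16_LY, beside 0.00 and -0.01 over all genes. The direct contrast of the start stages, cell16_LY against cell2_LY, called 8 members higher and 0 lower, 25.8% of them, beside 5.58% and 5.77% of all genes, 11.3% in all, with a median of 0.48 over the members and 0.04 over all genes. That contrast needs no control and is the test of the difference between the stages, and its smallest adjusted p among the members was 0.186 in limma, with 11 at an unadjusted p under 0.05. Without overlap, 4 members were higher and 15 lower in cell2_LY than in the controls (26.9% and 26.9% of all genes), 11 higher and 9 lower in cell16_LY (20.9% and 22%), and 21 higher and 4 lower in cell16_LY than in cell2_LY (28.2% and 26.3%).

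**Figure D3:**
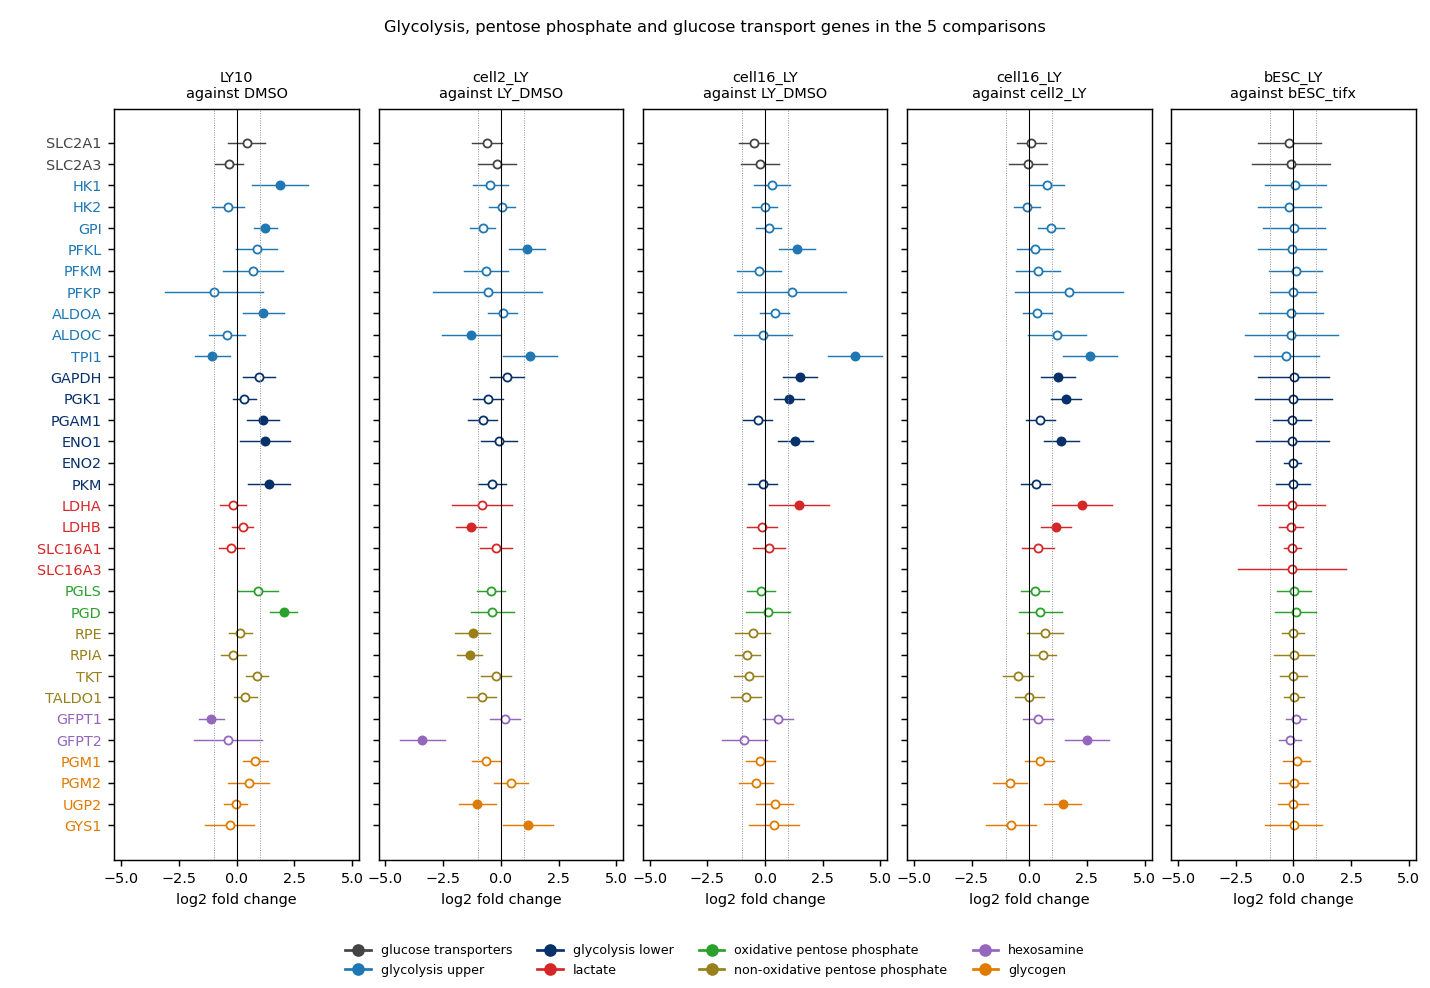
Log2 fold changes of the tested members in the 5 comparisons, ordered by role, with 95% intervals as bars, filled points for called members and dotted lines at -1 and 1. TPI1 reaches 3.92 in cell16_LY against LY_DMSO, GFPT2 reaches -3.41 in cell2_LY against LY_DMSO, and no member is called in the bESCs.

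The glucose transporters did not separate the treated groups. SLC2A1 was at 82.0 and 109.7 FPKM in LY_DMSO, at 67.5 and 58.5 FPKM in cell2_LY and at 79.0 and 57.3 FPKM in cell16_LY. SLC2A3 was at 215 and 354 FPKM in LY_DMSO, at 190.1 and 312 FPKM in cell2_LY and at 252 and 221 FPKM in cell16_LY. SLC2A1 was below both controls in all 4 treated blastocysts, with log2 fold changes of -0.59 and -0.50 that did not pass, and SLC2A3 overlapped.

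Of the upper steps before aldolase, PFKL was the 1 member called. HK1 was at 8.43 and 6.39 FPKM in LY_DMSO, at 6.77 and 4.20 FPKM in cell2_LY and at 9.36 and 8.72 FPKM in cell16_LY, and HK2 lay between 16.7 and 20.0 FPKM in all 6 libraries. HKDC1, which is not a member, lay between 9.92 and 24.7 FPKM in them. HK1 was 1.69-fold higher in cell16_LY than in cell2_LY without overlap (log2 fold change 0.76, -0.01 to 1.53, adjusted p = 0.283 in limma). GPI was at 139 and 163 FPKM in LY_DMSO, at 87.0 and 86.4 FPKM in cell2_LY and at 167 FPKM in both cell16_LY blastocysts. GPI was lowest in cell2_LY without overlap, 1.73-fold below the controls (log2 fold change -0.79, -1.34 to -0.25, adjusted p = 0.107 in limma) and 1.93-fold below cell16_LY (0.95 between the stages, 0.40 to 1.49, adjusted p = 0.193), both under the threshold of 1. PFKL was at 8.77 and 5.95 FPKM in LY_DMSO, at 19.8 and 12.8 FPKM in cell2_LY and at 20.9 and 17.3 FPKM in cell16_LY. It was called higher with both starts, by 1.14 (0.37 to 1.91, adjusted p = 0.104) and 1.39 (0.62 to 2.16, adjusted p = 0.499) on the log2 scale in limma, and the stages overlapped. The ratio of PFKL to PFKM was 3.61 to 5.07 in LY_DMSO, 12.04 to 16.5 in cell2_LY and 10.1 to 17.1 in cell16_LY, with an exact p of 0.33 for each start, the smallest that 2 against 2 libraries allow.

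At aldolase, ALDOA was at 261 and 264 FPKM in LY_DMSO, at 247 and 308 FPKM in cell2_LY and at 399 and 309 FPKM in cell16_LY, and was not called. ALDOC was at 8.45 and 24.8 FPKM in LY_DMSO, at 4.91 and 7.15 FPKM in cell2_LY and at 19.3 and 9.75 FPKM in cell16_LY. The 2 controls were farther apart than the means of LY_DMSO and cell2_LY, at 16.6 and 6.03 FPKM. The lower ALDOC call in cell2_LY had an interval that reached -0.02 (log2 fold change -1.28, adjusted p = 0.196 in limma).

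TPI1 gave the largest difference of the second experiment among the members. It was at 14.7 and 22.2 FPKM in LY_DMSO, at 70.4 and 26.8 FPKM in cell2_LY and at 401 and 186 FPKM in cell16_LY. The 3 groups followed each other without overlap, and the cell16_LY blastocysts differed more than 2-fold from each other. Against the controls TPI1 was 15.1-fold higher in cell16_LY (log2 fold change 3.92, 2.75 to 5.09, adjusted p = 0.126 in limma) and 2.41-fold higher in cell2_LY (1.27, 0.10 to 2.44, adjusted p = 0.175), and between the stages it was 6.28-fold higher with the later start (2.65, 1.48 to 3.82, adjusted p = 0.186). The cell2_LY call was lost without cell2_LY 1, where the log2 fold change was 0.57.

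GAPDH, PGK1 and ENO1 were each called higher in cell16_LY against both other groups. GAPDH was at 1178 and 889 FPKM in LY_DMSO, at 1070.3 and 1400.2 FPKM in cell2_LY and at 3281 and 2634 FPKM in cell16_LY. It was 2.87-fold above the controls (log2 fold change 1.52, adjusted p = 0.37 in limma) and 2.40-fold above cell2_LY (1.26, adjusted p = 0.193), and neither contrast had overlapping libraries. The copy LOC616200 held 31.7% as many reads as GAPDH in cell2_LY 1 and 13.1 to 17.9% in the other 5 libraries. PGK1, on the X chromosome from 74244892 to 74267571, was at 252 and 211 FPKM in LY_DMSO, at 143 and 172 FPKM in cell2_LY and at 563 and 393 FPKM in cell16_LY. The later start was 2.04-fold above the controls (log2 fold change 1.03, 0.38 to 1.68, adjusted p = 0.525 in limma) and 3.004-fold above the earlier start (1.59, 0.94 to 2.24, adjusted p = 0.186). TAF9B, on the other strand, covers 57.5% of the PGK1 span at no more than 1.43 FPKM in this table. ENO1 was at 315 and 221 FPKM in LY_DMSO, at 273 and 228 FPKM in cell2_LY and at 844 and 511 FPKM in cell16_LY. It was higher in cell16_LY by 1.31 on the log2 scale against the controls (0.55 to 2.08, adjusted p = 0.518 in limma) and by 1.40 against cell2_LY (0.63 to 2.16, adjusted p = 0.191).

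The remaining lower steps, PGAM1 and PKM, had no call in any of the 3 comparisons. PGAM1 was at 549 and 687 FPKM in LY_DMSO, at 334 and 378 FPKM in cell2_LY and at 547 and 446 FPKM in cell16_LY. PKM was at 154 and 178 FPKM in LY_DMSO, at 145 and 111 FPKM in cell2_LY and at 156 and 153 FPKM in cell16_LY. Both genes were lower in cell2_LY than in the controls without overlap, by log2 fold changes of -0.79 and -0.38. Both were higher in cell16_LY than in cell2_LY without overlap, by 0.48 and 0.29, as were all 5 tested members from GAPDH to PKM, and whether PGAM1 and PKM differed less than the other 3 was not tested. The summed glycolytic level was 2909 and 2691 FPKM in LY_DMSO, 2422 and 2755 FPKM in cell2_LY and 6428 and 4855 FPKM in cell16_LY. With GAPDH left out it was 1731 and 1802 FPKM, 1351 and 1354 FPKM, and 3147 and 2222 FPKM, in the same order.

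Lactate dehydrogenase separated the start stages through both subunits. LDHA, on chromosome 29 from 26290889 to 26302946, was at 61.5 and 163 FPKM in LY_DMSO, at 41.1 and 79.4 FPKM in cell2_LY and at 429 and 179.9 FPKM in cell16_LY. The LDHA controls differed widely from each other, and LDHA was called in cell16_LY against them (log2 fold change 1.47, 0.18 to 2.76, adjusted p = 0.62 in limma) and against cell2_LY, where it was 4.86-fold higher (2.28, 0.99 to 3.57, adjusted p = 0.193). A related copy, LOC784938, held 7.56% as many reads as LDHA in cell2_LY 1 and 15.2 to 18.8% in the other 5 libraries. LDHB, on chromosome 5 from 88544523 to 88562770, was at 530.1 and 641 FPKM in LY_DMSO, at 209 and 273 FPKM in cell2_LY and at 593 and 472 FPKM in cell16_LY. It was the cell2_LY blastocysts that stood apart, 2.44-fold below the controls (log2 fold change -1.29, -1.93 to -0.64, adjusted p = 0.0768 in limma), and cell16_LY was 2.21-fold above cell2_LY (1.15, adjusted p = 0.193) with no call against the controls. The LDHA to LDHB ratio was 0.116 to 0.255 in LY_DMSO, 0.197 to 0.291 in cell2_LY and 0.382 to 0.722 in cell16_LY, with an exact p of 0.33 for cell16_LY against either group. SLC16A1 overlapped in all 3 comparisons, between 76.8 and 138 FPKM.

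**Figure D4:**
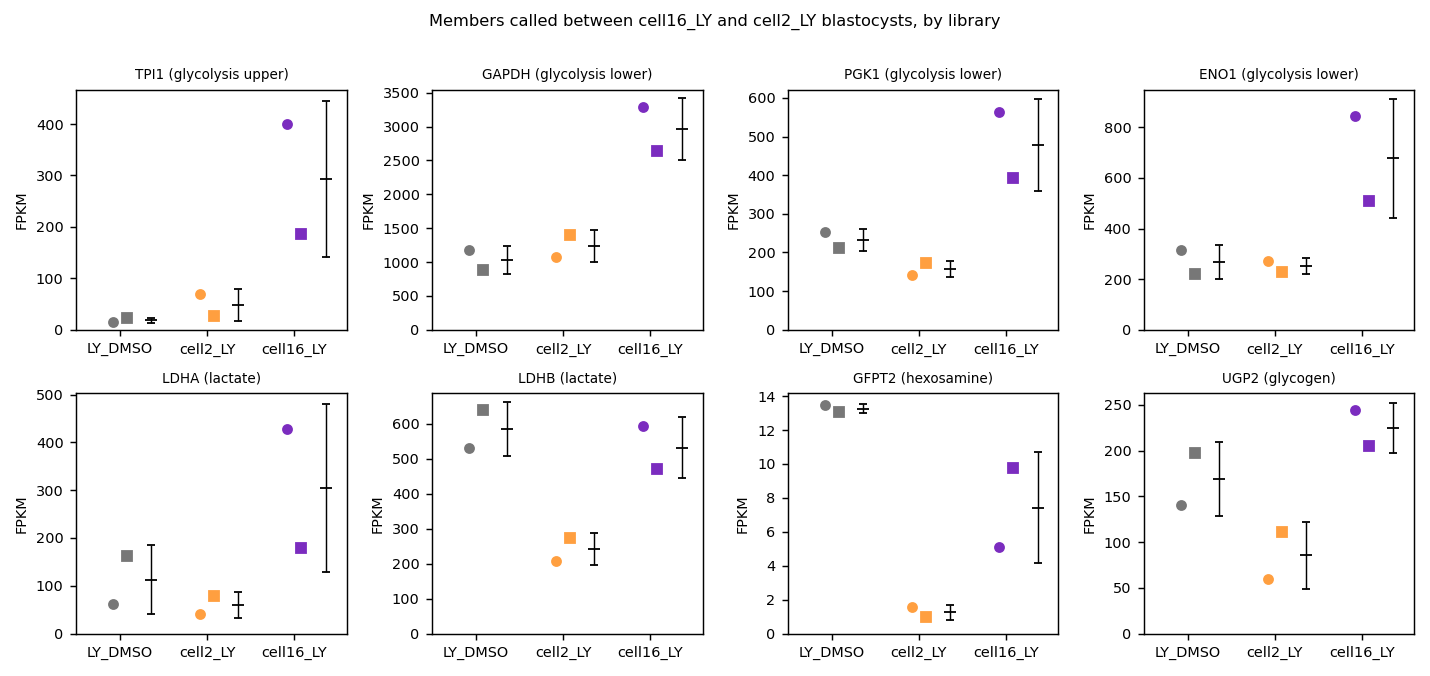
FPKM of selected members in the 2 LY_DMSO, 2 cell2_LY and 2 cell16_LY blastocysts; each marker shape is a replicate number and black bars give the mean ± SD. TPI1 (186 to 401 FPKM) and GAPDH (2634 to 3281 FPKM) are highest in cell16_LY, and GFPT2 (0.956 to 1.58 FPKM) is lowest in cell2_LY.

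In the pentose phosphate pathway, PGD was at 314 and 148 FPKM in LY_DMSO, at 182 and 154 FPKM in cell2_LY and at 175 and 315 FPKM in cell16_LY, with overlap in all 3 comparisons. Of the 4 non-oxidative members, 2 were called lower in cell2_LY and 0 in cell16_LY. RPIA, on chromosome 11 from 47351588 to 47386164, was at 209 and 239 FPKM in LY_DMSO, at 89.7 and 84.6 FPKM in cell2_LY and at 124 and 139 FPKM in cell16_LY. No group overlapped, and RPIA was called 2.56-fold lower in cell2_LY (log2 fold change -1.36, -1.91 to -0.81, adjusted p = 0.0711 in limma), while its -0.77 in cell16_LY was under the threshold. The epimerase RPE was at 26.6 and 39.3 FPKM in LY_DMSO, at 10.9 and 17.8 FPKM in cell2_LY and at 25.0 and 20.0 FPKM in cell16_LY, and was called 2.32-fold lower in cell2_LY (-1.21, -1.97 to -0.45, adjusted p = 0.0941).

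The transaldolase TALDO1, which returns carbon to glycolysis, was at 207 and 291 FPKM in LY_DMSO, at 125 and 152 FPKM in cell2_LY and at 152 and 126 FPKM in cell16_LY. TKT was at 176 and 156 FPKM in LY_DMSO, at 129.7 and 157 FPKM in cell2_LY and at 84.5 and 122 FPKM in cell16_LY, and overlapped the controls in cell2_LY (log2 fold change -0.22). Neither gene was called. All 4 non-oxidative members were below the controls without overlap in cell16_LY and 3 of 4 in cell2_LY, where 22% and 26.9% of all genes were, with median log2 fold changes of -0.74 and -1.02. The glycolytic sum over the non-oxidative sum was 4.70 and 3.71 in LY_DMSO, 6.82 and 6.71 in cell2_LY and 16.7 and 11.9 in cell16_LY. Those ratios did not overlap between any pair of groups. As with the glycolytic sum, cell16_LY 1 gave the highest value.

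The side branches also differed. GFPT2, on chromosome 7 from 864977 to 910376, was at 13.4 and 13.1 FPKM in LY_DMSO, at 1.58 and 0.956 FPKM in cell2_LY and at 5.11 and 9.75 FPKM in cell16_LY. Its level in cell2_LY was 10.6-fold below the controls (log2 fold change -3.41, -4.38 to -2.44, adjusted p = 0.0711 in limma), and cell16_LY was 5.67-fold above cell2_LY (2.50, 1.53 to 3.48, adjusted p = 0.186). GFPT1, which carries out the same reaction, was at 8.18 and 11.6 FPKM in LY_DMSO, at 9.86 and 12.4 FPKM in cell2_LY and at 15.9 and 12.9 FPKM in cell16_LY and was not called. The FPKM ratio of GFPT1 to GFPT2 was therefore higher in both treated groups, at 5.95 to 11.8 in cell2_LY and 1.32 to 3.07 in cell16_LY, against 0.611 to 0.884 in LY_DMSO (exact p = 0.33 for each). In normalized counts, which are not scaled for transcript length, GFPT1 was also the higher form in LY_DMSO, at a mean of 1604 against 589.

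UGP2, which makes UDP-glucose for glycogen and glycans, was at 140.1 and 198 FPKM in LY_DMSO, at 59.6 and 111 FPKM in cell2_LY and at 244 and 205 FPKM in cell16_LY. It was called lower in cell2_LY (log2 fold change -1.03, -1.83 to -0.23, adjusted p = 0.131 in limma) and 2.74-fold higher in cell16_LY than in cell2_LY (1.46, adjusted p = 0.191). GYS1 was at 1.25 and 2.13 FPKM in LY_DMSO, at 3.46 and 3.98 FPKM in cell2_LY and at 3.02 and 1.53 FPKM in cell16_LY. At these low levels it was called higher in cell2_LY (1.18, 0.09 to 2.27, adjusted p = 0.176). The ratio of PGM1 to PGM2 was 1.55 to 1.64 in cell2_LY, against 2.90 to 3.94 in LY_DMSO and 3.46 to 4.32 in cell16_LY.

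Single libraries weighed on these counts. Of the cell2_LY calls, GFPT2 passed in 15 of 15 alternatives, LDHB and RPIA in 14 (lost with quantile normalization), PFKL in 13, TPI1 in 12, RPE and UGP2 in 11, GYS1 in 10 and ALDOC in 8. Of the cell16_LY calls against the controls, PFKL, TPI1 and GAPDH passed in 15 of 15, ENO1 in 14 and PGK1 and LDHA in 13. Between the stages, 6 of 8 calls passed in 15 of 15, GAPDH in 14 and LDHB in 11. In cell2_LY against LY_DMSO, 3 members were called without cell2_LY 1, all of them lower, and 5 without LY_DMSO 2. In cell16_LY against LY_DMSO, 3 were called without cell16_LY 1, the blastocyst with the highest TPI1, GAPDH, PGK1, ENO1 and LDHA. The contrast between the stages had 7 to 9 calls with 1 library left out, and the LDHB call was lost without cell16_LY 1 and without cell2_LY 1. The scaling also mattered for the 2-cell start: with reads on genes as library size, which moved the median of all genes by 0.24, 3 members were called higher and 3 lower (1842 and 674 of all genes, against 1265 and 1211 with the authors' library sizes). For cell16_LY against cell2_LY that scaling gave 7 higher and 1 lower, PGM2, with the median of all genes at -0.18 and 421 and 1261 genes called against 810 and 839. The 3 called higher with that scaling for the 2-cell start were PFKL, TPI1 and GYS1.

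Of 53 tested related genes, 2 were called higher and 6 lower in cell2_LY against LY_DMSO, 15.1% of them beside 17% of all genes. In cell16_LY against LY_DMSO 4 and 0 were called, 7.55% beside 5.22%, and in cell16_LY against cell2_LY 8 and 2, 18.9% beside 11.3%. The called genes in cell2_LY included BPGM (log2 fold change -2.89), which makes 2,3-bisphosphoglycerate, the ribose-activating PRPS1 (-2.02) and the deoxyribose aldolase DERA (-1.62), and PFKFB3 (1.90), which makes the activator of phosphofructokinase. In cell16_LY against LY_DMSO they included the glycogen branching enzyme GBE1 (1.72), the muscle mutase PGAM2 (2.21) and the hexosamine enzyme UAP1 (1.55). Between the stages GBE1 (1.87), PDK3 (1.84), an inhibitor of pyruvate dehydrogenase, PRPS1 (1.44) and DERA (1.38) were higher with the later start.

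Of 21 hypoxia-response genes, which like many glycolytic genes are known targets of hypoxia-inducible factor, 4 were called higher and 2 lower in cell2_LY, 2 and 0 in cell16_LY against the controls, and 5 and 2 between the stages, that is 28.6%, 9.52% and 33.3% beside 17%, 5.22% and 11.3% of all genes. Their summed level was 14635 and 14926 normalized counts in LY_DMSO, 13842 and 15402 in cell2_LY and 17420 and 26037 in cell16_LY, highest in cell16_LY 1. Trophectoderm sums were 104859 to 124454 in LY_DMSO, 131533 to 194139 in cell2_LY and 133581 to 134180 in cell16_LY, above the controls in all 4 treated blastocysts. Of 11 tested trophectoderm genes, all had a positive log2 fold change in cell2_LY and 3 were called, CDX2 (2.78), PAG11 (2.29) and GATA2 (1.99). That is 27.3% of them, beside 17% of all genes. CDX2, a trophectoderm transcription factor, was at 0.410 to 0.591 FPKM in LY_DMSO, 3.49 to 3.87 FPKM in cell2_LY and 0.860 to 1.14 FPKM in cell16_LY. In cell16_LY the trophoblast products PAG11 (5.31) and IFNT2 (3.36) were called higher than in the controls, and between the stages PAG11 (3.02) and IFNT2 (2.87) were higher and GATA2 (-1.94) and CDX2 (-1.84) lower with the later start. These calls were 18.2% and 36.4% of the tested trophectoderm genes, beside 5.22% and 11.3% of all genes. Epiblast sums were 13452 to 18167 in LY_DMSO, 11977 to 15016 in cell2_LY and 10676 to 13420 in cell16_LY, below the controls in both cell16_LY blastocysts. Called epiblast genes were DPPA3 in cell2_LY (-1.59) and, between the stages, UTF1 (-2.02) and DNMT3B (-1.05). They were 10% and 20% of the tested epiblast genes, beside 17% and 11.3% of all genes. PDGFRA (-2.01) was the 1 hypoblast call, in cell2_LY, 12.5% of those tested beside 17% of all genes. The hypoblast sums overlapped at 24279 to 55675, with SOX17 at 0 in 5 of 6 libraries. The part of these lists in the glycolytic differences was not tested.

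In the bESCs, LY gave no called member, and 0 of 33 members had an unadjusted p under 0.05 in limma, where 0.0749% of the 16012 genes tested were called and 16 had an unadjusted p under 0.05. Log2 fold changes ran from -0.30 for TPI1 to 0.15 for PGM1, with a median of -0.03 beside -0.01 over all genes. The 95% intervals extended by a median of 1.01 to each side of the estimate and were widest for SLC16A3, from -2.39 to 2.27. GAPDH was at 3633 and 1617 FPKM in bESC_LY and at 3673 and 1581 FPKM in bESC_tifx. LDHA was at 1086 and 481 FPKM in bESC_LY and at 1113 and 524 FPKM in bESC_tifx, and PGD at 143 and 84.3 FPKM and at 123 and 84.7 FPKM. In each case the 2 libraries of a group were farther apart than the groups.

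That distance followed the library number, 2 or 3 in the labels. The fit had no term for the number, so the distance counted as spread in the intervals and p-values above. With a replicate block for the number, 0 members were called as well. Over all genes, 1276 had an unadjusted p under 0.05 in limma with the block, against 16 without it. The values of number 2 exceeded those of number 3 in both groups for 26 of 33 members, where 37.1% of all genes tested did. The median log2 difference between the numbers was 0.65 over the members and 0.00 over all genes, with 1.04 over the 15 glycolytic members, 1.18 over the glucose transporters and 0.28 over the non-oxidative arm. SLC2A3 was at 2845 FPKM in bESC_LY 2 and 2917 in bESC_tifx 2, against 1102 in bESC_LY 3 and 1246 in bESC_tifx 3. SLC16A3, with a log2 difference of 1.83, was at 55.3 and 58.4 FPKM in the number 2 libraries and at 15.7 and 16.1 FPKM in the number 3 libraries. PGM2, SLC16A1 and ENO2 were higher in number 3 of both groups, with log2 differences of -0.41, -0.16 and -0.08, and TPI1, RPE, RPIA and GFPT1 overlapped. PGM2 was at 26.4 and 27.5 FPKM in the number 2 libraries and at 36.9 and 34.8 FPKM in the number 3 libraries. Within a number, bESC_LY and bESC_tifx differed by -0.76 to 0.33 on the log2 scale. What the numbers stand for is not given in the sources used here, and the difference between them is a description without a test.

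**Figure D5:**
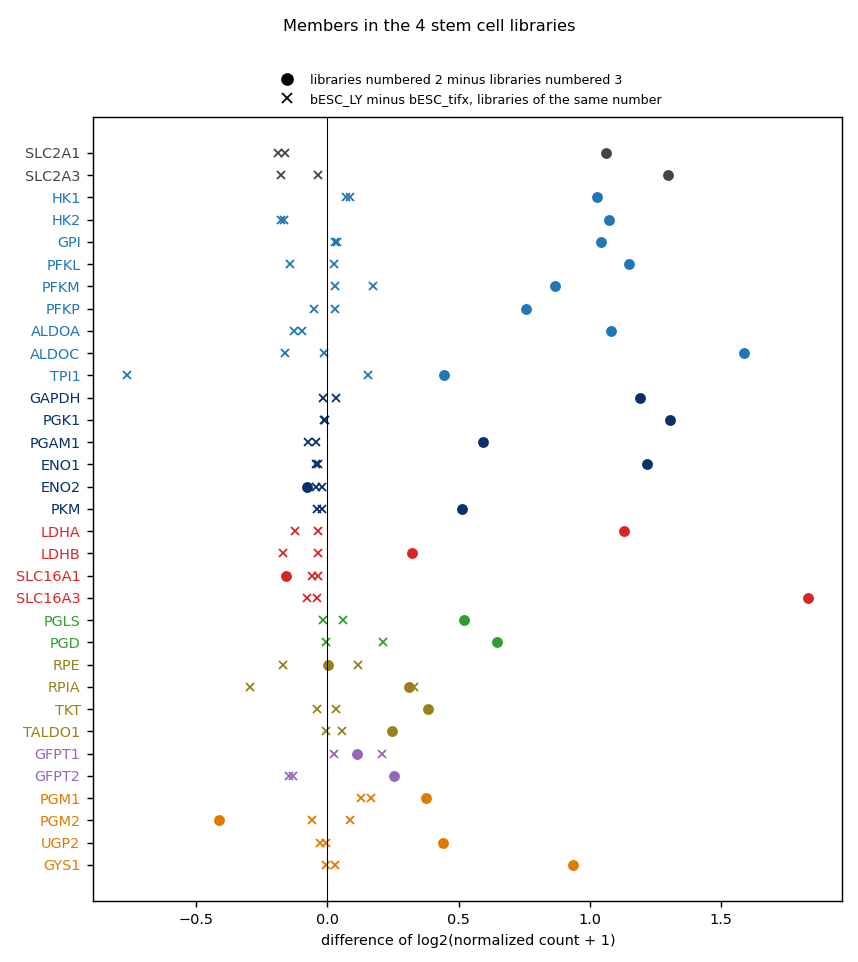
Log2 differences of each member in the bESCs: dots give library number 2 minus number 3 (mean of both groups) and crosses give bESC_LY minus bESC_tifx within each number. The dots of the glycolytic members centre on 1.04, and the crosses of all members lie between -0.76 and 0.33.

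Other genes differed between the numbers as well. All 21 hypoxia-response genes tested were higher in the number 2 libraries of both groups, with a median log2 difference of 1.12, and their sum was 75030 and 72544 normalized counts against 30749 and 32629. The trophectoderm list was at 18768 and 21680 against 7039 and 8174, with IFNT2, PAG2, PAG11 and PAG12 at 0 throughout. Hypoblast markers were at 10470 and 10356 in number 2 against 38299 and 38255 in number 3, while the epiblast list stayed between 110522 and 118835 and the fibroblast list between 9341 and 9871. The part of these lists in the glycolytic difference was not tested.

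On the FPKM scale, the balance between isoenzymes in the bESCs was inverted for lactate dehydrogenase and, with 1 exception, for hexokinase. LDHA exceeded LDHB in all 4 bESC libraries, 1.18- to 2.10-fold, whereas LDHB exceeded LDHA in all 12 blastocysts. HK1 exceeded HK2 in all 4, 1.69- to 1.76-fold in bESC_LY and 1.44- to 1.47-fold in bESC_tifx, a ratio that did not overlap between the groups (exact p = 0.33), whereas HK2 exceeded HK1 in 11 of 12 blastocysts, LY10 2 being the exception. The order of LDHA and LDHB depends on the gene lengths, 4080 and 1353 bases in the blastocysts but 1901 and 1872 in the bESCs. In normalized counts, which are not scaled for length, mean LDHA exceeded mean LDHB in cell16_LY, at 18925 against 10983. In the other blastocyst groups mean LDHB was higher, at 5507 against 5024 in DMSO. RPIA lay at 3.51 to 5.42 FPKM in the bESCs and at 84.6 to 239 FPKM in the blastocysts, and UGP2 at 13.6 to 18.7 FPKM against 59.6 to 244 FPKM. Libraries of single embryos and of cultured cells were made with different extraction kits and counted with different annotations, so these levels are given side by side without a test.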

How the data were processed

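Single-blastocyst SMART-seq and bESC poly-A libraries were read from 3 tables of FPKM. FPKM was computed by the authors, whose processing notes name HISAT2 2.0.5, StringTie 1.3.3b, featureCounts 1.5.0-p3 and DESeq2 1.20.0; the genome build and the strand setting were not given in the sources used here, and gene positions are those in the tables. FPKM times gene length gave whole reads for all values within 0.02 reads, so normalized counts were reads scaled to the geometric mean library size of a table (10651692, 15246235 and 30547774). The deposited fold change and p-value columns were not used. Genes with a mean of at least 10 normalized counts were tested on log2(normalized count + 1) with limma 3.58.1 (trend, R 4.3.3), in 1 fit per table without covariates, with Benjamini-Hochberg correction over all genes. A pseudocount of 1 understates changes of low genes. Intervals are 95%. Isoenzyme ratios used log2(FPKM + 0.1) and a two-sided exact permutation test (scipy 1.17.1). The fit was tested on simulated data, where 99 to 100% of 200 genes changed by a log2 of 2 were recovered. The simulated dispersion was 0.102 for LY10 against DMSO, 0.07 for cell16_LY against LY_DMSO and 0.0293 for the bESCs. Recovery of genes with a wider spread between libraries was not tested. In the simulated bESCs 5.33% of unchanged genes had an unadjusted p under 0.05 in limma, whereas 16 of 16012 genes did in the real bESCs. The recovery therefore does not describe how readily the bESC test could find a change. Members, gene lists and tests were chosen with earlier results of these data known. All 33 members were named by role, and at most 5 called related genes per comparison by smallest p. HKDC1 was named for its level beside HK1 and HK2. Lineage markers were named after their values were seen. One of the 70 related genes is not reported here, and promoter and protein sequences were not analysed here. Alternatives comprised pseudocount, filter, scaling, voom weights, log2(FPKM + 1), a 2-group fit, a replicate block and leaving out each library.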

Additional observations from a re-analysis of the deposited data

Results flagged for a closer look

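Between the start stages, 8 of 31 tested members were called in the direct test of cell16_LY against cell2_LY, in which the shared LY_DMSO controls cancel. They were 25.8% of the tested members, beside 11.3% of all genes tested. The log2 differences were 2.65 for TPI1, 2.50 for GFPT2, 2.28 for LDHA, 1.59 for PGK1, 1.46 for UGP2, 1.40 for ENO1, 1.26 for GAPDH and 1.15 for LDHB, all higher with the 16-cell start. None had an adjusted p under 0.05 in limma (0.186 to 0.193).

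Both experiments included LY from early cleavage, and 6 members had non-overlapping groups in opposite directions in them. No member had non-overlapping groups in the same direction in both. HK1, GAPDH, PGD, TKT and GFPT1 separated in LY10 and overlapped in cell2_LY. Of all genes tested, 13.8% were higher and 14.4% lower without overlap in LY10, and 26.9% and 26.9% in cell2_LY. The share of all genes with opposite directions was not computed, so the 6 members cannot be set against it. GPI differed by 1.24 on the log2 scale in LY10 against DMSO and by -0.79 in cell2_LY against LY_DMSO, PGAM1 by 1.15 and -0.79, PKM by 1.38 and -0.38, LDHB by 0.26 and -1.29, and PGM1 by 0.81 and -0.65. TPI1, the only member called in both, had the reverse order, at -1.05 and 1.27. The difference between the experiments was not tested, since their tables were normalised separately and the dose of the second is not in the labels.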

How the results depend on the processing

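All 32 called member results kept their direction in the 489 alternative fits, and the call was kept in 439 of them. With 1 library left out, the number of called members was 5 to 10 in LY10 against DMSO (9 with all libraries), 3 to 9 in cell2_LY against LY_DMSO (9), 3 to 7 in cell16_LY against LY_DMSO (6), 7 to 9 in cell16_LY against cell2_LY (8) and 0 in the bESCs. A group left with 1 library was assumed to vary like the others. Quantile normalization gave 4 called members in cell2_LY against LY_DMSO, 2 higher and 2 lower. Of the 297 isoenzyme alternatives, 2 moved: with FPKM + 1 the difference of the ENO1 to ENO2 ratio in cell2_LY went from -2.32 to -0.68, and that of PFKP to PFKL between the stages from 1.14 to 0.24. Same-numbered libraries correlated at -0.117 to 0.168 and -0.232 to 0.121 in the blastocyst tables and at 0.789 in the bESCs, where no label says that a number marks a shared culture. With the replicate block 9, 9, 6, 8 and 0 members were called in the 5 comparisons, while over all genes in the bESCs 69 were called higher and 77 lower, with 116 at an adjusted p under 0.05 in limma, against 6, 6 and 0 without it. Over all genes, the number called with 1 library left out was 1327 to 3456 in LY10 against DMSO (2097 with all), 1577 to 3404 in cell2_LY against LY_DMSO (2476), 350 to 1357 in cell16_LY against LY_DMSO (758), 820 to 2908 between the start stages (1649) and 28 to 58 in the bESCs (12). Without DMSO 3, 1964 genes had an adjusted p under 0.05 in LY10 against DMSO, against 2 with it. On log2(FPKM + 1) the counts were 1628 in cell2_LY against LY_DMSO, 454 in cell16_LY against LY_DMSO, 958 between the stages and 22 in the bESCs. Without a filter they were 1238 in cell16_LY against LY_DMSO and 158 in the bESCs, and with a minimum of 50 normalized counts 1350 in LY10 against DMSO and 2 in the bESCs. A count model was not run.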
